A study of Homo sapiens with 6 samples.

Results

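Transcript levels of 44 genes of the cell cycle, DNA replication and the kinetochore were read in the lung cancer lines HCC95 and H460. The genes were chosen by name, with earlier results of these data known. The list held 4 G1 cyclins and kinases, 16 S-phase genes and 24 mitotic genes. All 44 were among the 20046 genes that the array annotation names. Where a gene had several probes, the brightest on average stood for it. Values are log2 of background-corrected, quantile-normalized intensity, so a difference of 1 is a 2-fold difference on this scale.

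Cells divide through G1, S phase, G2 and mitosis, and each phase draws on its own set of transcripts. D-type cyclins with CDK4 act early in G1, cyclin E with CDK2 acts at the entry to S phase, and E2F transcription factors switch on the genes of DNA synthesis there. Genes of G2 and mitosis are transcribed later, through a promoter element named CHR and CCAAT boxes bound by NF-Y, with FOXM1 and B-MYB among their activators. Proliferating tumour cell lines as a rule express all of these sets.

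HCC95 is a cell line grown from a squamous carcinoma of the lung, and H460 comes from a large cell carcinoma. Control cells carried the vector labelled pSin-E2F-GFP-puro, and the other cells carried pSIn-E2F-LZTFL1-ires-GFP-puro, which encodes the leucine zipper protein LZTFL1 together with GFP. Both vector names include GFP and puro, so the control cells share these with the others. HCC95 with either vector was untreated or treated with TGFβ, a cytokine that restrains division of many epithelial cells, and H460 with either vector was untreated. Each of the 6 groups had 1 array, the labels give neither the dose nor the duration of TGFβ, and nothing in them says that cultures were replicated. The study's title concerns lung tumour growth, epithelial differentiation and the MAPK and SHH pathways.

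The promoters of the members carried different sequence words in the S-phase and the mitotic class. Windows from 250 bases before to 50 bases after the transcription start were available from RefSeq (GRCh38.p14) for 34 of the 44 members. An E2F word (TTTCCCGC, TTTCGCGC, TTTGCCGC or TTTGGCGC, read on both strands, where matches of any words could overlap) was present in 9 of 13 S-phase windows (69.2%) and 3 of 19 mitotic windows (15.8%), against 4.44% of 15843 coding genes with a window. The CHR word TTTGAA, read on both strands, was present in 1 of 13 S-phase windows (7.69%) and 13 of 19 mitotic windows (68.4%), against 12.1% of all. CCAAT, read on both strands, was present in 76.9% of S-phase, 89.5% of mitotic and 36.4% of all windows. CHR and CCAAT together were present in 57.9% of mitotic, 7.69% of S-phase and 5.02% of all windows. A match describes the letters of a window and does not show that a factor binds there. The promoters of CCND1, CDK2, CCNE2, MCM4, MCM5, AURKA, BIRC5, FOXM1, TPX2 and UBE2C were not used here. The 150 bases before the start are shown for 9 members whose values are described below, 4 of S phase and 5 of mitosis, so that both kinds of promoter can be compared. Capitals mark the E2F, CHR and CCAAT words, and an element on the opposite strand appears as its reverse complement (GCGGGAAA, GCGGCAAA or GCGCCAAA for E2F, TTCAAA for CHR, ATTGG for CCAAT).
E2F1, chr20:33686386-33686535, minus strand: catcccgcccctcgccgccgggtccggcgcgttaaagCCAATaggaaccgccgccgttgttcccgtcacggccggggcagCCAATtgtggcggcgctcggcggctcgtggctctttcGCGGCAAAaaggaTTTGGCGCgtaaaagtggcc
GINS2, chr16:85688955-85689104, minus strand: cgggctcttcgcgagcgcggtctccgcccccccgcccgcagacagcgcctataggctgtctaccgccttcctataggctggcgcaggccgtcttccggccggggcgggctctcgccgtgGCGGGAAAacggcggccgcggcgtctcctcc
TYMS, chr18:657503-657652, plus strand: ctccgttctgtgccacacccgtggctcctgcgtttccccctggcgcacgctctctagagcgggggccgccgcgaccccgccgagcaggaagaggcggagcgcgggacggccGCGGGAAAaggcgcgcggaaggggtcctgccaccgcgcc
RRM2, chr2:10122589-10122738, plus strand: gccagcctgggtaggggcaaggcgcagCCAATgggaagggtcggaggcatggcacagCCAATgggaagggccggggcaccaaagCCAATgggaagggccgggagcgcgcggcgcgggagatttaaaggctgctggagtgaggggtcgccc
CCNB2, chr15:59104996-59105145, plus strand: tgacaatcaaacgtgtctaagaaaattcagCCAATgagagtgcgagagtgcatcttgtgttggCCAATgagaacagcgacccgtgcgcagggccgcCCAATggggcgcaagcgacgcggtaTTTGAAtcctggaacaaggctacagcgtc
CDC20, chr1:43358831-43358980, plus strand: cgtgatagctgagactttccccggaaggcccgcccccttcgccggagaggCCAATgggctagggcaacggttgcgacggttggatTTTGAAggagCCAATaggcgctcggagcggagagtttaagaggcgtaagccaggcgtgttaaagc
BUB1B, chr15:40160919-40161068, plus strand: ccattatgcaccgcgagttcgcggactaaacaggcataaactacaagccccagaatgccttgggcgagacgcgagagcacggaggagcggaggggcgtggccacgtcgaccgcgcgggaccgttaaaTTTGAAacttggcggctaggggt
PLK1, chr16:23678739-23678888, plus strand: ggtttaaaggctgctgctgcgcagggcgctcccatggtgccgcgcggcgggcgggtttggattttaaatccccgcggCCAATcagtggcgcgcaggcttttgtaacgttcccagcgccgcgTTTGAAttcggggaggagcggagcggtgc
SPC24, chr19:11155783-11155932, minus strand: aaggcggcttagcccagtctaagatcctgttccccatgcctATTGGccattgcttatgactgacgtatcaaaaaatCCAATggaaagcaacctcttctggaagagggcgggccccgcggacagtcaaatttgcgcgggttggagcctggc
The E2F word of GINS2 began at position -31 and that of TYMS at -39 relative to the start. The CHR word lay at -29 in CCNB2, -29 in PLK1 and -23 in BUB1B. SPC24 held CCAAT boxes but neither of the other words, and RRM2 likewise held CCAAT boxes alone.

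Between 14136 and 16423 of 47323 probes were detected per array (detection p under 0.01), with the fewest on the TGFβ arrays (14136 for GFP, 14232 for LZTFL1). Median probe signals were 104 to 125. Arrays of HCC95 correlated with each other at 0.982 to 0.987 over all probes, those of H460 at 0.989, and arrays of different lines at 0.906 to 0.911. The introduced gene was read by 1 probe, whose place relative to the vector's insert is not known here. Its log2 values were 5.74 in HCC95 with GFP, 5.39 with GFP and TGFβ, 5.07 in HCC95 labelled LZTFL1, 5.06 labelled LZTFL1 and TGFβ, 6.35 in H460 with GFP and 6.38 in H460 labelled LZTFL1. The probe was detected on 3 of the 6 arrays, those of untreated HCC95 with GFP and of H460 with either vector. On both HCC95 arrays labelled LZTFL1 and on HCC95 with GFP and TGFβ it was not detected, so those values are not measured levels. No rise of LZTFL1 with its label was thus seen in HCC95. PMEPA1 and SMAD7, which TGFβ induces in many cells, were lower on both arrays labelled TGFβ, with PMEPA1 at 9.37 and 7.15 in the GFP pair and at 9.52 and 6.20 in the LZTFL1 pair. Arrays are therefore named by their labels, and "with TGFβ" or "with LZTFL1" in every comparison refers to the label of the array. The squamous keratins KRT5 and KRT14 and the desmosomal genes DSG3 and PKP1 were detected on all 4 HCC95 arrays and on neither H460 array, and the epithelial genes EPCAM and CDH1 followed the same pattern. The epithelial keratins KRT8, KRT18 and KRT19 were detected on all 6 arrays, as was the squamous marker DSC3, and SOX2 was detected on all 4 HCC95 arrays and 1 H460 array. PTPRC of white blood cells, PECAM1 and CDH5 of endothelium, DCN and LUM of stroma and HBB of red cells were detected on 0 of the 6 arrays. Other markers of such cells were detected: CD68 and ACTA2 on all 6, VWF and THY1 on the 4 HCC95 arrays, COL1A1 on 2 of these, and CD14 and PDGFRB on both H460 arrays.

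Of the 44 members, 42 were detected on all 6 arrays. CCNE2, a cyclin E, was detected on none of the 6, and CDC6, which loads the MCM helicase, was detected only in untreated HCC95 labelled LZTFL1, at 5.55. The 42 others entered every test below. In RNA from a whole culture, fewer cells in a phase and less RNA per cell cannot be told apart.

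**Figure D1:**
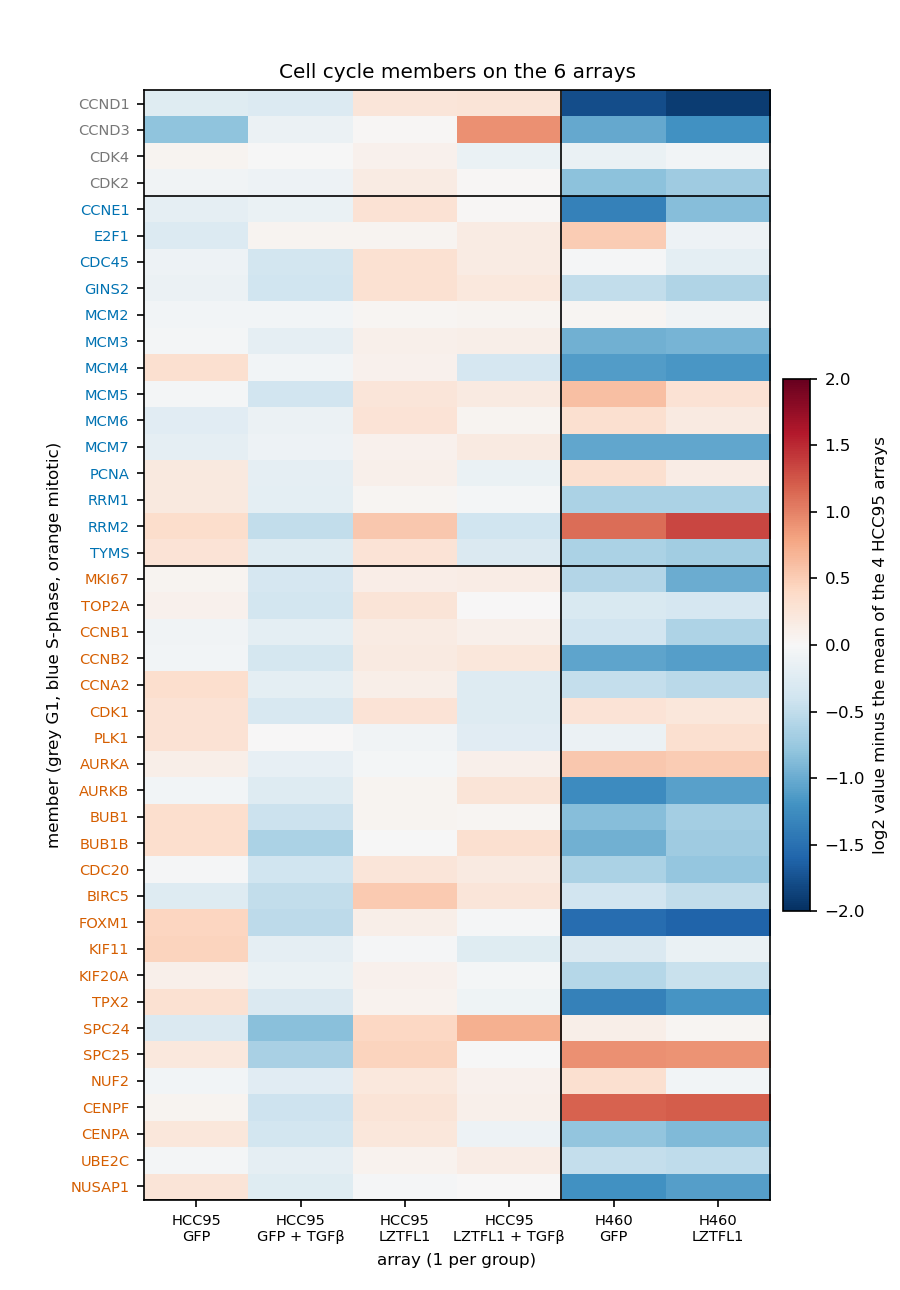
Log2 value of each of the 42 members detected on all 6 arrays (rows, ordered G1, S-phase, mitotic) minus its mean over the 4 HCC95 arrays, for the 6 arrays (columns, 1 per group); red is higher and blue lower. The HCC95 GFP array with TGFβ is blue for most mitotic rows, with a class median of -0.32, and both H460 columns are blue for most members, with mitotic medians of -0.48 and -0.52.

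In HCC95 with GFP, the array labelled TGFβ was lower than the untreated array for 24 of 24 mitotic members, with a median difference of -0.46, while the S-phase median was -0.28, with 10 of 14 members lower. With LZTFL1 the same comparison gave -0.13 for mitotic members, 16 of 24 lower, and -0.10 for S-phase members, 10 of 15 lower with CDC6 included. The median of mitotic members was thus below that of S-phase members by 0.19 in the GFP pair (mitotic minus S-phase, -0.19) and nearly level with it in the LZTFL1 pair (-0.03, or -0.01 without CDC6, whose value there is a bound). The median over all features was 0 in both pairs. Longer gene lists, here and below, were chosen for the role of their genes. That choice was also made with earlier results of these data known, so the lists give no independent support. Of 68 measured genes of a longer mitosis list, 62 were lower in the GFP pair (median -0.29) and 42 in the LZTFL1 pair (median -0.06). Over 39 measured genes of a longer replication list, 25 were lower in the GFP pair, with a median of -0.07.

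The HCC95 GFP array with TGFβ was the lowest of the 4 HCC95 arrays for 21 of 24 mitotic and 8 of 14 S-phase members. It was the lowest for 22.8% of the 10800 features detected on all 4 arrays. This array also had the fewest detected probes and the lowest median signal, 104, and the part of this in the members' values was not tested. Whether the TGFβ difference depended on the vector could not be tested, because 4 arrays leave no residual degrees of freedom for that term. Both TGFβ pairs together put 26 of 42 members lower in each pair, of which 16 were mitotic and 8 S-phase, against 29.5% of all features. No member differed by 2-fold or more, with 0 of 42 in the GFP pair and 0 of 43 in the LZTFL1 pair, against 0.882% and 1.49% of all features. When arrays were scaled by their medians alone, 5 members were at least 2-fold lower in the GFP pair and 1 in the LZTFL1 pair, and with the mean of a gene's detected probes 1 was in the GFP pair. Of 42 members, 3 were higher in both pairs, against 30.1% of all features.

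**Figure D2:**
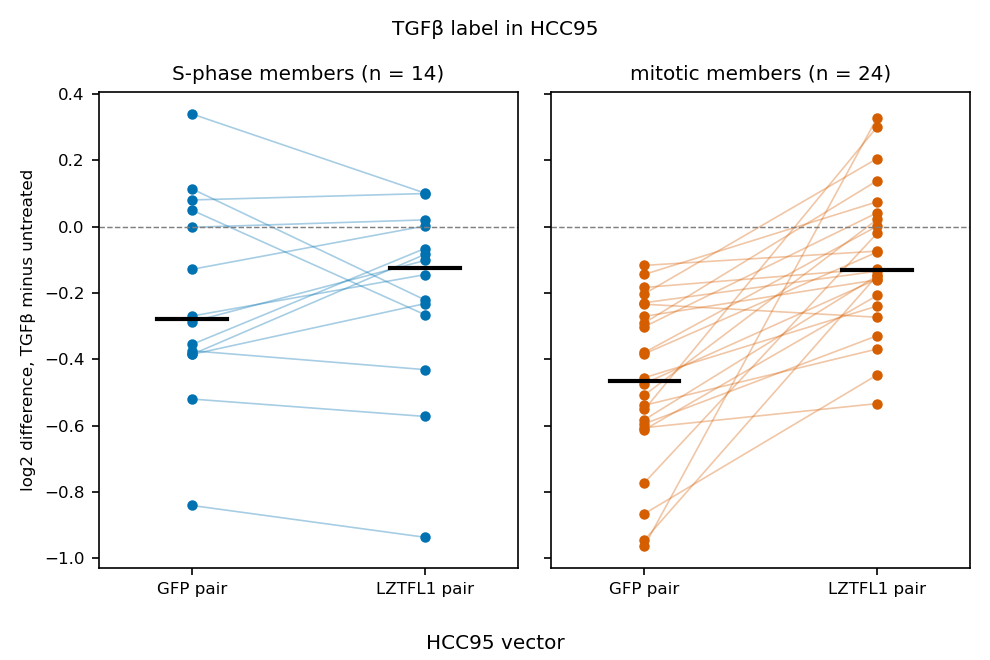
Log2 difference between the array labelled TGFβ and the untreated array of HCC95, in the GFP pair and in the LZTFL1 pair, for 14 S-phase members (left) and 24 mitotic members (right) detected on all 6 arrays; lines join the points of a gene and black bars are medians. Every mitotic point of the GFP pair lies below 0 (median -0.46), whereas 8 of 24 lie above 0 in the LZTFL1 pair (median -0.13), and the S-phase medians are -0.28 and -0.12.

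A limma fit to the HCC95 arrays (n = 4), in which vector was also a term, tested the TGFβ effect that both vectors shared. Of 42 members, 4 fell and 1 rose at an adjusted p under 0.05, where 2.71% of 12735 features fell and 3.39% rose. The members that fell were RRM2 and TYMS of S phase and CDK1 and FOXM1 of mitosis, and CCND3 of G1 rose. RRM2 and TYMS passed in 6 of 8 alternative treatments of the data, CDK1 and CCND3 in 5, and FOXM1 in 2. The fit has 1 residual degree of freedom, which holds the disagreement between vectors, and its SE comes largely from other genes of like brightness. No spread between cultures enters these p-values.

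RRM2 encodes the small subunit of ribonucleotide reductase, the enzyme that makes deoxynucleotides. It stood at 6.55 untreated and 5.71 with TGFβ in the GFP pair, at 6.74 and 5.80 in the LZTFL1 pair, and at 7.32 and 7.53 in H460 with GFP and LZTFL1. Both untreated HCC95 arrays were above both TGFβ arrays, and RRM2 fell by 0.89 ± 0.23 on the log2 scale (estimate ± SE, limma, adjusted p = 0.0182). Its TGFβ values lay close to the lowest detected values of those arrays, 5.70 with GFP and 5.68 with LZTFL1. The size of the fall is therefore uncertain, and its estimate ranged from -1.09 to -0.41 over the alternatives. Its partner RRM1, the large subunit, differed by -0.39 with GFP and -0.08 with LZTFL1 and did not pass (adjusted p = 0.264, limma). TYMS, the thymidylate synthase that supplies thymidine nucleotides, was 11.58 and 11.06 in the GFP pair and 11.59 and 11.02 in the LZTFL1 pair. The untreated and TGFβ levels of TYMS did not overlap, and it fell by 0.55 ± 0.12 (limma, adjusted p = 0.00445).

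CDK1, the kinase that with cyclin B starts mitosis, was 10.06 untreated and 9.46 with TGFβ in the GFP pair and 10.05 and 9.51 in the LZTFL1 pair. It fell by 0.57 ± 0.14 (limma, adjusted p = 0.0102), by -0.61 with GFP and -0.53 with LZTFL1, and a second CDK1 probe gave -0.17 and -0.55. FOXM1, a transcription factor of mitotic genes, was 9.47 and 8.53 with GFP but 9.16 and 9.02 with LZTFL1. Its shared estimate of -0.55 ± 0.17 (limma, adjusted p = 0.0478) joins a GFP difference of -0.94 and an LZTFL1 difference of -0.15. A second FOXM1 probe gave -1.21 and -0.09 in the same pairs.

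The spindle checkpoint kinase BUB1 and its relative BUB1B, which delay anaphase until chromosomes attach, had the pattern of FOXM1 without passing the test. BUB1B was 7.68 untreated and 6.72 with TGFβ in the GFP pair, and 7.34 and 7.67 in the LZTFL1 pair. BUB1 was 9.24 and 8.47, and 8.95 and 8.93. Their GFP differences were thus -0.96 and -0.77, the LZTFL1 differences 0.33 and -0.02, and their adjusted p-values 0.446 and 0.168 (limma). SPC24, a subunit of the NDC80 complex that grips microtubules at the kinetochore, differed by -0.55 with GFP and 0.30 with LZTFL1, and its partner SPC25 by -0.87 and -0.45. A second SPC25 probe gave 0.27 with LZTFL1, so the direction of SPC25 in that pair depended on the probe. With GFP it gave 0 as a bound, since it was not detected on the TGFβ array. The mitotic kinesin KIF11 (-0.61 and -0.21), the spindle factor TPX2 (-0.58 and -0.15) and the centromeric histone CENPA (-0.59 and -0.33) were lower in both pairs, with adjusted p-values of 0.141, 0.131 and 0.0604 (limma). The smallest mitotic differences in the GFP pair were those of CCNB1, a B-type cyclin (-0.12), and UBE2C, a ubiquitin-conjugating enzyme of mitotic exit (-0.14).

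Within the replication machinery the differences of the MCM helicase subunits were mixed. In the GFP pair they were -0.37 for MCM4, -0.35 for MCM5 and -0.13 for MCM3, against 0.11 for MCM6 and 0.08 for MCM7, and MCM2 stood at 8.62 on both arrays. None of the 6 subunits passed the TGFβ test. E2F1, the founding E2F factor, was higher with TGFβ by 0.34 in the GFP pair and 0.10 in the LZTFL1 pair (adjusted p = 0.640, limma).

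CCND3, a D-type cyclin, was the only member that rose with TGFβ. It was 9.14 untreated and 9.83 with TGFβ in the GFP pair and 9.98 and 10.86 in the LZTFL1 pair. CCND3 rose by 0.79 ± 0.13 with TGFβ (limma, adjusted p = 0.000399), while CCND1, the other D-type cyclin measured among the members, stood at 11.15 and 11.13 with GFP and at 11.64 and 11.66 with LZTFL1. The kinase partner CDK4 differed by -0.05 and -0.22 and CDK2 by -0.03 and -0.13, neither past the test. Among genes listed as brakes of the cycle, chosen for their role, 4 of 18 fell with TGFβ and 0 rose, against 2.71% and 3.39% of all features. These were RB1, which restrains E2F (-0.92 ± 0.20), the CDK inhibitor CDKN1A (-0.59 ± 0.13), FBXO5 (-0.58 ± 0.17) and CCNG2. FBXO5 inhibits the anaphase-promoting complex and is not a brake on S-phase entry. CCNG2, an atypical cyclin, was not detected on either TGFβ array. In the longer mitosis list 5 of 68 fell, namely SGO2, CKAP2, CENPK, DLGAP5 and OIP5, and 0 rose, where 19 of 68 had an unadjusted p under 0.05 (limma), against 20.4% of all features. In the longer replication list 0 of 39 passed, and 7 of 39 had an unadjusted p under 0.05 (limma). Of 5 tested markers of other cell types, VWF, CD68 and THY1 rose with TGFβ (1.60, 0.81 and 0.79), and the summed log2 level of all 13 such markers was 73.7 and 76.7 in the GFP pair and 72.2 and 76.6 in the LZTFL1 pair, with 4 or 5 of the 13 detected on each array. The part of these markers in the members' values was not tested.

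The arrays labelled LZTFL1 in HCC95 were compared with GFP in 2 pairs that share no array, untreated and with TGFβ. Of 42 members, 25 were higher with LZTFL1 in both pairs and 4 lower in both, against 34.0% and 30.4% of all features. Of 10 housekeeping genes, 7 were lower with LZTFL1 untreated (median -0.17) and 8 with TGFβ (median -0.20). Their summed log2 level was 109.8 with GFP and 108.2 with LZTFL1 untreated, and 109.8 and 107.6 with TGFβ, and its part in the members' values was not tested. The S-phase medians were 0.19 untreated, with 12 of 15 higher and CDC6 included as a bound (0.23 without it), and 0.15 with TGFβ, with 12 of 14 higher. The mitotic medians were 0.04 and 0.35, with 12 and 21 of 24 higher. Mitotic minus S-phase was -0.15 untreated (-0.18 without CDC6) and 0.20 with TGFβ. The untreated mitotic median was -0.15 when arrays were scaled by their medians and not quantile-normalized, which put the median of all features of that pair at the same -0.15. The LZTFL1 pair with TGFβ and the GFP TGFβ pair share the low GFP array described above, and the untreated LZTFL1 pair shares its GFP array with the GFP TGFβ pair.

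**Figure D3:**
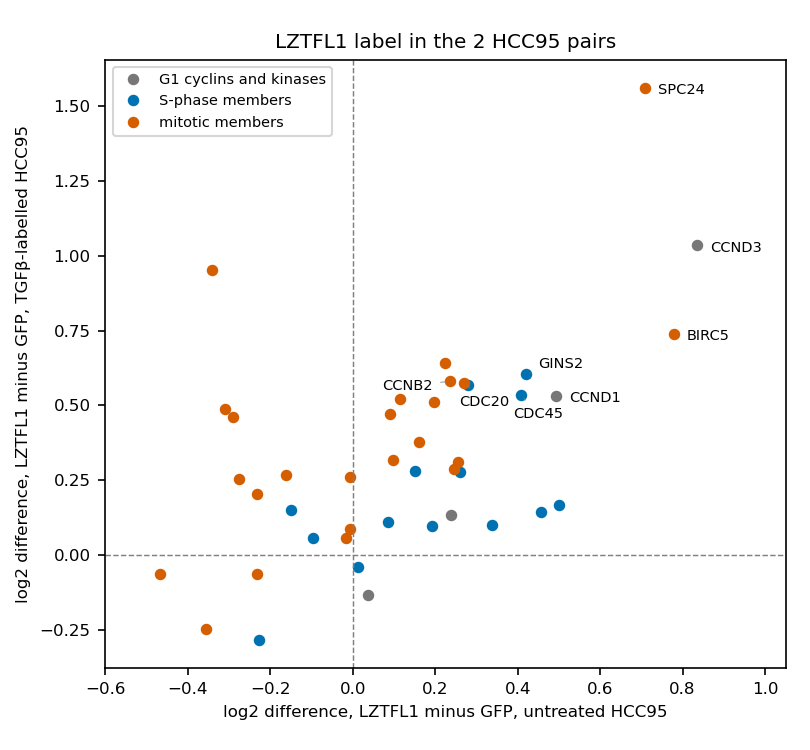
Log2 difference between LZTFL1 and GFP for the 42 members detected on all 6 arrays, in untreated HCC95 (horizontal axis) and in HCC95 labelled TGFβ (vertical axis); each point is a gene, coloured by class, and the 8 members that passed the limma test are named. SPC24 (0.71 and 1.56), CCND3 (0.84 and 1.03) and BIRC5 (0.78 and 0.74) lie farthest from the origin, and several mitotic members are below 0 untreated and above 0 with TGFβ.

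In the limma fit over the 4 HCC95 arrays, with TGFβ as a term, 8 of 42 members rose with LZTFL1 and 0 fell, where 3.70% of 12735 features rose and 3.87% fell. They were CCND1 and CCND3 of G1, CDC45 and GINS2 of S phase and CCNB2, CDC20, BIRC5 and SPC24 of mitosis. The unadjusted p was under 0.05 for 13 of the 42 (31.0%) and for 22.0% of features. CCND3 and SPC24 passed in 6 of 8 alternative treatments of the data, CCND1 in 5, BIRC5 in 4, CDC20 in 2, and CCNB2, CDC45 and GINS2 in 1 each. No single pair put a member past 2-fold in untreated HCC95 (0 of 43, against 1.01% of features). With TGFβ, CCND3 and SPC24 were 2.05-fold and 2.95-fold higher with LZTFL1, 2 of 42 members against 0.402% of features, and 0 of 42 were 2-fold lower, against 0.844%.

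CCND3, whose protein activates CDK4 and CDK6, was 9.14 with GFP and 9.98 with LZTFL1 untreated, and 9.83 and 10.86 with TGFβ. It rose by 0.94 ± 0.13 (limma, adjusted p = 4.71e-05). CCND1 was 11.15 and 11.64 untreated and 11.13 and 11.66 with TGFβ, so that both LZTFL1 arrays were above both GFP arrays, and it rose by 0.51 ± 0.12 (limma, adjusted p = 0.00660). CDK4 and CDK2, with LZTFL1 estimates of -0.05 and 0.18, did not pass.

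CDC45 and GINS2 are parts of the active replicative helicase, in which they join the MCM ring. CDC45 was 9.23 with GFP and 9.64 with LZTFL1 untreated, and 8.96 and 9.49 with TGFβ, and it rose by 0.47 ± 0.14 (limma, adjusted p = 0.0420). GINS2, whose E2F word is shown above, was 8.72 and 9.14 untreated and 8.44 and 9.04 with TGFβ, and it rose by 0.51 ± 0.15 (limma, adjusted p = 0.0372). For both genes each LZTFL1 array was above both GFP arrays. MCM5 and MCM6 had estimates of 0.42 and 0.33 and MCM4 one of -0.25, with adjusted p-values of 0.121, 0.145 and 0.242 (limma).

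SPC24 differed most among the mitotic members. It was 7.60 with GFP and 8.31 with LZTFL1 untreated, and 7.05 and 8.61 with TGFβ, and it rose by 1.14 ± 0.19 (limma, adjusted p = 0.000261). The other subunits of its complex had smaller estimates, 0.43 for SPC25 (adjusted p = 0.232, limma) and 0.28 for NUF2 (adjusted p = 0.399, limma). A second NUF2 probe differed by -0.05 untreated and -0.17 with TGFβ, against 0.25 and 0.31 by the first. The direction of NUF2 thus depended on the probe. BIRC5, or survivin, which guides Aurora B to centromeres, was 8.63 and 9.40 untreated and 8.39 and 9.13 with TGFβ, and it rose by 0.76 ± 0.15 (limma, adjusted p = 0.00184). A second BIRC5 probe differed by -0.14 untreated and 0.29 with TGFβ, so the gene's direction depended on the probe in untreated cells. CDC20, an activator of the anaphase-promoting complex, was 10.98 and 11.25 untreated and 10.60 and 11.17 with TGFβ, and rose by 0.42 ± 0.12 (limma, adjusted p = 0.0355). CCNB2, a B-type cyclin, was 11.01 and 11.25 untreated and 10.71 and 11.29 with TGFβ, and rose by 0.41 ± 0.12 (limma, adjusted p = 0.0423).

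Other mitotic members were lower with LZTFL1 untreated and higher with it under TGFβ. BUB1B differed by -0.34 and 0.95, FOXM1 by -0.31 and 0.49, BUB1 by -0.29 and 0.46 and NUSAP1, which bundles spindle microtubules, by -0.28 and 0.25. A second FOXM1 probe gave -0.78 and 0.34. A second NUSAP1 probe gave -0.39 and -0.32, so the direction of NUSAP1 under TGFβ depended on the probe. PLK1, a kinase of mitotic entry, was lower in both pairs, by -0.36 and -0.25. KIF11 differed by -0.47 and -0.06, and a second KIF11 probe by -0.49 and 0.16, so its direction with TGFβ depended on the probe. The adjusted p-values of these 6 genes were 0.352 or more (limma).

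In the longer lists few genes passed the LZTFL1 test in HCC95. Over all features 3.70% rose and 3.87% fell, and the shares in the longer mitosis and replication lists were below these. In mitosis HJURP (0.61), which deposits CENPA at centromeres, and CENPW (0.47) rose (2.94%) and the phosphatase CDC25B (-0.62) fell (1.47%), 3 of 68. An unadjusted p under 0.05 (limma) was found for 13.2% of that list, against 22.0% of features. In replication the thymidine kinase TK1 (0.45) rose and RAD51AP1 (-0.60) fell, 2 of 39 (2.56% in each direction). E2F2 (0.77) rose and E2F5 (-1.20) fell among 21 regulators (4.76% in each direction). PKMYT1 (0.58), an inhibitory kinase of CDK1, rose among 18 genes listed as brakes (5.56%). Both lists were thus near the shares of all features. Of the squamous markers 3 of 6 fell, with summed log2 levels of 66.6 and 62.8 untreated and 64.6 and 61.3 with TGFβ, and the part of these in the members' values was not tested.

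In H460 the members differed little between the vectors. The S-phase median was -0.08, with 11 of 14 lower with LZTFL1, and the mitotic median was -0.03, with 15 of 24 lower, so that mitotic minus S-phase was 0.05. Both medians were above 0 with median scaling (0.07 and 0.11), which put the median of all features at 0.13. No member reached 2-fold (0 of 42, against 0.162% of features). The largest differences were -0.61 for E2F1, which stood at 6.72 with GFP and 6.11 with LZTFL1, 0.49 for CCNE1 (6.37 and 6.86) and 0.44 for PLK1 (6.26 and 6.70). All 3 genes were dim, on arrays whose lowest detected values were 5.58 with GFP and 5.38 with LZTFL1, so the sizes of their differences are uncertain. The LZTFL1 effect shared by the 3 contexts passed for 0 of 42 members (limma, 6 arrays with context as a term), with 5 members (11.9%) at an unadjusted p under 0.05 against 9.90% of features, and 0.00709% of 14101 features passed. The LZTFL1 effect differed between the lines for 1 of 42 members, CCND3, where 0.305% of 14101 features did. CCND3 was 8.93 with GFP and 8.74 with LZTFL1 in H460, and its effect there was lower than in HCC95 by 1.13 ± 0.24 on the log2 scale (H460 minus HCC95, -1.13, limma, adjusted p = 0.0277). That call was lost in 5 of 7 alternative treatments of the data.

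H460 had lower values than HCC95 for most members. In the limma fit to untreated arrays (n = 4), which also held a vector term, 26 of 42 members were lower and 4 higher in H460, where 28.0% and 25.0% of 13803 features were. With median scaling 27 were lower and 1 higher, since RRM2, AURKA and SPC25 no longer passed (adjusted p = 0.146, 0.0721 and 0.405, limma). By class, 3 of 4 G1, 7 of 14 S-phase and 16 of 24 mitotic members were lower. The median differences were -0.15 for S-phase and -0.62 for mitotic members in the GFP pair, and -0.50 and -0.68 in the LZTFL1 pair, so mitotic minus S-phase was -0.47 and -0.17. The S-phase median of the LZTFL1 pair includes CDC6 as a bound. Without CDC6 it was -0.59, and mitotic minus S-phase was -0.09. With median scaling the GFP medians were -0.58 for S-phase and -0.95 for mitotic members, and that of all features was -0.27. These pairs share no array. Both H460 arrays lay below all 4 HCC95 arrays for 24 of 42 members and above all 4 for 5, against 33.6% and 31.0% of features. In the GFP pair 10 of 42 members were at least 2-fold lower in H460 and 1 was at least 2-fold higher, against 11.5% and 11.5% of features. These counts were 18 and 0 with median scaling and 6 and 0 when no background was removed. In the LZTFL1 pair 15 of 43 were 2-fold lower and 0 of 43 2-fold higher, against 11.2% and 10.7%. Each line is 1 model of its tumour type, and the differences describe these lines.

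**Figure D4:**
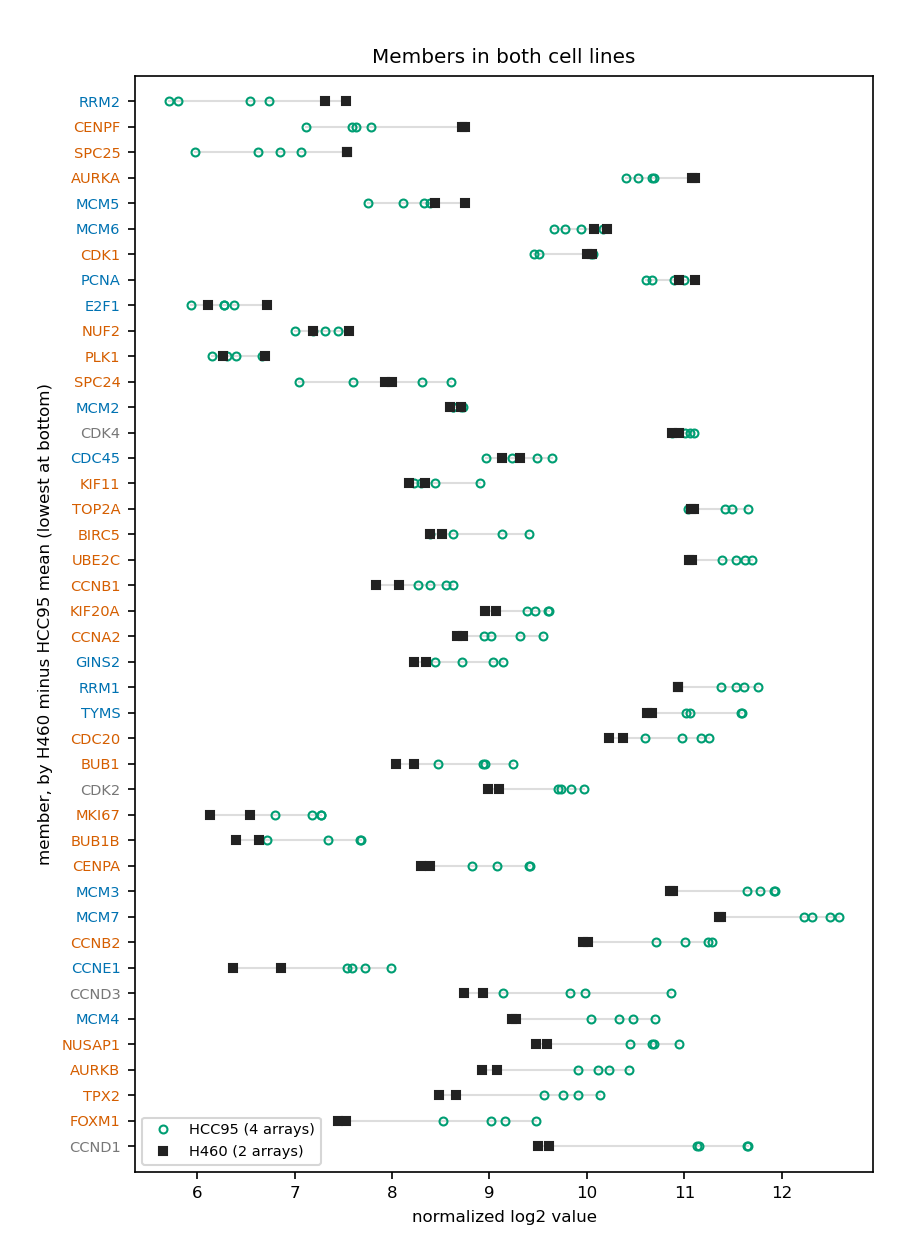
Normalized log2 value of each of the 42 members on the 4 HCC95 arrays (open circles) and the 2 H460 arrays (filled squares), with genes ordered by the difference between the lines; positions are compared within a row, since different genes are read by different probes. The squares lie left of all circles for 24 members and right of all circles for RRM2, CENPF, SPC25, AURKA and MCM5.

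CCND1 and FOXM1 had the largest differences among the members. CCND1, of G1, lay between 11.13 and 11.66 on the HCC95 arrays and at 9.62 and 9.50 in H460 with GFP and LZTFL1. CCND1 was 3.58-fold lower in H460 (log2 -1.84 ± 0.17, limma, adjusted p = 2.42e-06). CDK2 lay between 9.70 and 9.97 in HCC95 and at 8.98 and 9.09 in H460 (-0.81 ± 0.16, limma, adjusted p = 0.00112). CCND3 was also lower in H460 (-0.72 ± 0.22, limma, adjusted p = 0.0160), whereas CDK4 did not pass. CCND2, the remaining D-type cyclin and no member, was 12.14 and 12.18 in untreated HCC95 with GFP and LZTFL1 and was not detected in H460, which makes it at least 94.2-fold lower there in the GFP pair.

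Among S-phase members the MCM helicase divided. MCM3 lay between 11.64 and 11.93 in HCC95 and at 10.85 and 10.89 in H460, MCM4 between 10.04 and 10.70 and at 9.27 and 9.23, and MCM7 between 12.23 and 12.59 and at 11.38 and 11.36. These subunits were lower in H460 by 0.98 ± 0.14, 1.34 ± 0.16 and 0.99 ± 0.13 on the log2 scale. MCM2, MCM5 and MCM6 had differences of -0.02, 0.34 and 0.23 and did not pass. CCNE1, cyclin E1, lay between 7.54 and 7.99 in HCC95 and at 6.37 and 6.86 in H460 (-1.15 ± 0.20). GINS2 lay between 8.44 and 9.14 and at 8.35 and 8.23 (-0.64 ± 0.19).

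The nucleotide enzymes divided as well. TYMS lay between 11.02 and 11.59 in HCC95 and at 10.67 and 10.61 in H460 (-0.94 ± 0.14), and RRM1 lay between 11.38 and 11.76 and at 10.94 and 10.93 (-0.75 ± 0.14). RRM2 went the other way, with HCC95 values of 5.71 to 6.74 and H460 values of 7.32 and 7.53 (0.78 ± 0.20, limma, adjusted p = 0.00586). PCNA, the sliding clamp of DNA polymerase, E2F1 and CDC45 did not pass, with differences of 0.08, 0.31 and -0.21.

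FOXM1 had the largest mitotic difference. It lay between 8.53 and 9.47 in HCC95 and at 7.53 and 7.44 in H460, 3.56-fold lower (-1.83 ± 0.18, limma, adjusted p = 3.58e-06), and its second probe differed by -2.04 with GFP and -1.34 with LZTFL1. TPX2, an activator of Aurora A on the spindle, lay between 9.56 and 10.14 and at 8.48 and 8.66 (-1.45 ± 0.17). Its partner AURKA was higher in H460, with HCC95 values of 10.40 to 10.69 and H460 values of 11.11 and 11.08 (0.48 ± 0.14, limma, adjusted p = 0.0127). AURKB, the kinase of the chromosomal passenger complex, was lower, between 9.91 and 10.44 in HCC95 and at 8.92 and 9.08 in H460 (-1.17 ± 0.16). NUSAP1 lay between 10.44 and 10.95 and at 9.48 and 9.59 (-1.28 ± 0.16).

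The checkpoint and exit genes were lower in H460. BUB1 lay between 8.47 and 9.24 in HCC95 and at 8.04 and 8.22 in H460 (-0.97 ± 0.18), and BUB1B between 6.72 and 7.68 and at 6.39 and 6.63 (-0.996 ± 0.22). CDC20 lay between 10.60 and 11.25 and at 10.37 and 10.22 (-0.82 ± 0.15). None of these 3 genes overlapped between the lines. Of the cyclins, CCNB2 lay between 10.71 and 11.29 in HCC95 and at 10.01 and 9.96 in H460 (-1.14 ± 0.15), and CCNA2, cyclin A2, between 8.95 and 9.55 and at 8.72 and 8.67 (-0.74 ± 0.17). MKI67, the proliferation antigen Ki-67, lay between 6.80 and 7.27 and at 6.54 and 6.13 (-0.88 ± 0.22). Outside those given by array, CCNB1 (-0.55), TOP2A (-0.49), UBE2C (-0.52), KIF20A (-0.60) and BIRC5 (-0.56) were also lower in the test, of which TOP2A and BIRC5 overlapped between the lines.

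The kinetochore members did not share a direction. CENPA lay between 8.82 and 9.41 in HCC95 and at 8.39 and 8.29 in H460 (-1.07 ± 0.17). CENPF, a large protein of the outer kinetochore, lay between 7.12 and 7.79 in HCC95 and at 8.71 and 8.75 in H460, 2.06-fold higher (1.04 ± 0.18, limma, adjusted p = 0.000412). SPC25 lay between 5.98 and 7.07 and at 7.54 and 7.53 (0.58 ± 0.20), whereas SPC24 (0.01) and NUF2 (0.06) did not pass. NDC80, the fourth subunit of that complex and no member, was lower in H460 by 1.87 ± 0.19 on the log2 scale (limma, adjusted p = 6.05e-06).

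Genes of the longer lists also differed between the lines. In mitosis 28 of 68 were lower in H460 (41.2%) and 6 higher (8.82%), against the 28.0% and 25.0% of features above, led by INCENP (-2.12), KIFC1 (-1.98), NDC80, OIP5 (-1.75) and CEP55 (-1.75). In replication 11 of 39 were lower (28.2%) and 6 higher (15.4%), so the share lower was near that of all features, with RFC4 (-1.77), TK1 (-1.31) and MSH6 (-1.26) lower and EXO1 (1.64) and POLA1 (1.43) higher. Among 17 genes listed as brakes 7 were lower and 5 higher, with TOB1 (2.60) highest and RB1 (-1.26) and WEE1 (-1.19) lowest. The squamous markers, all 6 lower in H460, had a summed log2 level of 61.3 to 66.6 on the HCC95 arrays and 29.3 in H460 with GFP, where 1 of the 6 was detected, and the part of cell origin in the members' differences was not tested.

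Probes of the same gene gave a measure of the spread between probes within a pair of arrays. It does not measure the spread between arrays or between cultures. Of 16 members with more than 1 probe, 13 had 2 probes detected on all 6 arrays. The probes had the same direction for 12 of 13 genes in the GFP TGFβ pair, 10 of 13 in the LZTFL1 TGFβ pair, and 11 of 13 in each comparison of the lines. In the LZTFL1 comparison they had the same direction for 9 of 13 genes untreated, 4 of 13 with TGFβ and 10 of 13 in H460. The SD between probes of a gene, over all genes, was 0.241 in the GFP TGFβ pair, 0.262 in the LZTFL1 pair with TGFβ and 0.374 between the lines with GFP. The exception in the GFP TGFβ pair was PCNA, at -0.39 by its brighter probe and 0.73 by its second.

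**Figure D5:**
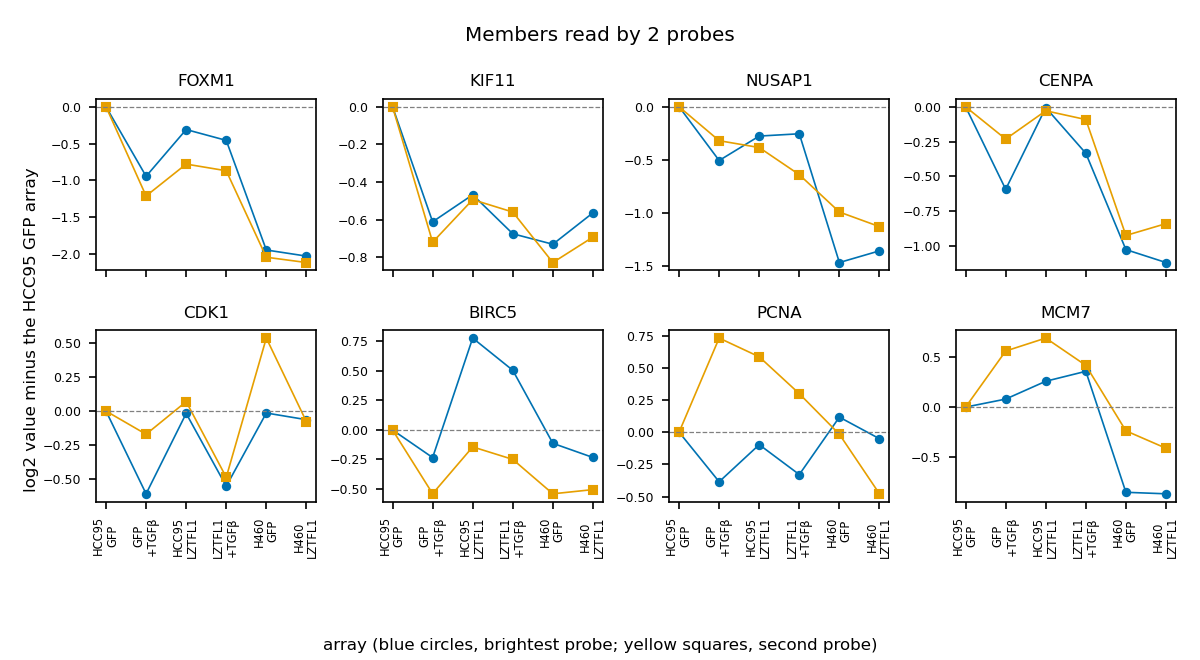
Log2 value minus that of the untreated HCC95 GFP array, for 8 members read by 2 probes, on the 6 arrays; blue circles are the brighter probe used in the report and yellow squares the second probe. Both probes of FOXM1 and of KIF11 lie below 0 on every other array, though those of FOXM1 differ in size (-0.31 and -0.78 on the untreated LZTFL1 array). Those of BIRC5 part on the LZTFL1 arrays (0.78 and -0.14 untreated), and those of PCNA part on the GFP array with TGFβ (-0.39 and 0.73).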

How the data were processed

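RNA from 6 samples, 1 per group, was measured on the Illumina HumanHT-12 v4 array, per the labels. The authors deposited non-normalized probe intensities, each followed by its detection p-value, and a second table whose intensities are processed and linear. GenomeStudio 2011.1 is named for them, per the submitters' processing notes. Its settings, and how the processed table was normalized and centred, are not stated in the sources used here. With limma 3.58.1 in R 4.3.3, the intensities were corrected by normexp using the deposited detection p-values, with an offset of 16, quantile-normalized and taken to log2. The offset understates folds of dim genes. The platform annotation gave 1 gene for 30113 of 47323 probes, several for 8 and no entry for 17202, and 30074 were matched by gene identifier to the RefSeq table. Probes without 1 listed gene stayed as features under their own identity.

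A feature entered a pair if its detection p was under 0.01 on either array, and an undetected value was raised to the lowest detected value of its array, which makes the difference a bound. If the undetected array then came out higher, the difference was set to 0. Pairs have no test. The limma fits (lmFit, eBayes with a mean-variance trend, Benjamini-Hochberg over all features detected on at least 2 arrays) had 1 residual degree of freedom, or 2 for the effect shared by 3 contexts. All were additive except the fit of the LZTFL1 difference between lines, which held a vector-by-line term. Its 1 residual degree of freedom holds the disagreement between the 2 HCC95 pairs. An SE from any of these fits comes largely from other genes of like brightness. The number of arrays limits the precision. The members and gene lists were chosen with earlier results of these data known. Every member could be named, and of longer lists at most 5 genes per comparison that passed. Members that passed a test or 2-fold were given by array, at most 30, in part as a range over the HCC95 arrays. SPC24, CDC45, CDK1 and BIRC5 were given on the HCC95 arrays alone. CCNB1, TOP2A, UBE2C and KIF20A, beyond the 30, are given by their estimates. Some genes of the longer lists were not analysed here. Alternatives were median scaling, no background correction, an offset of 50, the processed values, the mean of a gene's detected probes, detection p under 0.05, a 1.5-fold threshold, no variance trend and no covariate. Figures were drawn with matplotlib 3.10.9.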

Additional observations from a re-analysis of the deposited data

Results flagged for a closer look

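The LZTFL1 effect on CCND3 differed between the lines by -1.13 on the log2 scale (H460 minus HCC95, limma's interaction term, adjusted p = 0.0277). CCND3 was higher with LZTFL1 than with GFP in HCC95, by 0.84 untreated and 1.03 with TGFβ, and lower in H460, by -0.19. The H460 effect rests on 1 pair of arrays and on 1 probe. With 5 of 7 alternatives the difference no longer passed, and its adjusted p ranged from 0.00785 to 0.428 over the 7.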

How the results depend on the processing

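The LZTFL1 count in HCC95, 8 members, was 2 with median scaling, 4 when no background was removed, 4 at an offset of 50, 3 with the mean of detected probes, 5 at detection p under 0.05, and 0 both without the variance trend and without the TGFβ term. The TGFβ count, 5 members, was 9 with median scaling, all lower, 4 when no background was removed, at an offset of 50 and at detection p under 0.05, each without FOXM1, 3 with the mean of probes, and 0 both without the trend and without the vector term. The single member whose LZTFL1 effect differed between the lines was lost (0) with median scaling, no background correction, an offset of 50, the mean of probes and no trend. Between the lines the count was 25 to 30, and 28 or 29 members did not overlap. Its 4 higher and 26 lower became 1 and 27 with median scaling, without RRM2, AURKA and SPC25, and 3 and 22 without the trend. Members past 2-fold went from 11 to 18 with median scaling and to 6 with no background correction between the lines with GFP, from 0 to 5 and 1 with median scaling in the GFP and LZTFL1 TGFβ pairs, and from 0 to 1 with the mean of probes in the former. In the LZTFL1 pair with TGFβ they went from 2 to 1 with no background correction. At 1.5-fold they were 26 in either comparison of the lines, 9 and 2 in the TGFβ pairs, and 3, 6 and 1 with LZTFL1 in untreated HCC95, with TGFβ and in H460. No call reversed its direction, but with median scaling the mitotic median of the untreated HCC95 LZTFL1 pair and both medians of the H460 pair changed sign. Median scaling put the median of all features at -0.28 in the GFP TGFβ pair, -0.27 between the lines with GFP, -0.15 in the untreated LZTFL1 pair and 0.13 in H460. In the GFP TGFβ pair the S-phase median was then -0.63 and the mitotic median -0.79, and the latter lay between -0.79 and -0.36 over all alternatives. Over all features it turned 471 higher and 493 lower calls into 110 and 290 for LZTFL1, 432 and 345 into 121 and 746 for TGFβ, and 3453 and 3867 into 2351 and 4262 between the lines. The alternatives for class medians and single estimates were chosen after seeing the data. Replicates could not be paired because each group has 1 array, and for the same reason no replicate could be left out. The fits did hold TGFβ, vector or context as a term. CCNE2 was not compared, and CDC6 entered only the pairs with the untreated HCC95 LZTFL1 array, as a bound.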
